A study of Mus musculus with 45 samples.

Results

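Tumours driven by the Pdgfra D842V mutant were compared with tumours driven by the Pdgfra V544ins mutant, in 8 of the 45 expression arrays of a mouse glioma study. The 5 D842V arrays had sample titles 1 to 5 and the 3 V544ins arrays had titles 6, 8 and 10. Both groups therefore lay in the lower of the 2 ranges of title numbers, 1 to 30 and 41 to 64, and the labels do not say what these ranges stand for. The labels give the genotypes as Pdgfra D842V;p53null and Pdgfra V544ins;p53null, the strain of both groups as CD-1 nude, the tissue as mouse brain and the disease model as glioblastoma. Per the series description, the mutants were carried by retroviral vectors and primary astrocytes of the mouse without p53 were the cells chosen to test them. The loss of p53 was thus shared by both groups, and nude mice lack a thymus and mature T cells but keep microglia, macrophages and granulocytes. The labels give no animal, litter, culture, sex or age, so replicates were numbered in accession order: D842V replicates 1 to 5 have titles 2, 1, 3, 4 and 5, and V544ins replicates 1 to 3 have titles 10, 8 and 6. Since nothing says that replicates came from separate animals, p-values measure the spread between arrays. That spread was pooled within the groups of all 45 arrays, not taken from the 8 compared alone.

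PDGFRA is a receptor tyrosine kinase of oligodendrocyte progenitors. Its ligands pair 2 receptors, which then phosphorylate each other and signal through the RAS-ERK, PI3K-AKT and PLC-gamma routes. ERK signalling induces immediate early genes such as Fos and Egr2 within minutes and, later, genes such as Dusp6 and the Sprouty genes that restrain it. D842V replaces an aspartate in the activation loop of the kinase domain and is best known from gastrointestinal stromal tumours, whereas V544ins is an insertion at the transmembrane segment of the receptor. The comparison asks whether tumours driven by a kinase mutant and by a transmembrane mutant differ in expression.

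Values are log2 signals (RMA). A difference is D842V minus V544ins on that scale and is followed by its standard error, and a mean by its SD. Array medians were 4.66 to 4.85 over all 45 arrays. The signal of the 3' over the 5' control probe sets of Actb, a measure of RNA and labelling quality, was 0.44 to 0.74 on the log2 scale in D842V and 0.66 to 0.68 in V544ins. Samples were bulk tissue that can hold host brain, and in them fewer cells of a type and less RNA per cell cannot be told apart. Markers of neurons averaged 10.20, 9.12, 9.11, 9.17 and 5.52 in D842V replicates 1 to 5, against 10.24, 9.74 and 9.97 in V544ins replicates 1 to 3. D842V replicate 5 thus held far less neuronal signal than the other 7 arrays, and Snap25, a synaptic vesicle fusion gene, read 7.62 in it, against 11.87 to 12.77 in the other D842V arrays and 12.39 to 12.70 in V544ins. D842V replicate 1 correlated as closely with the V544ins arrays (Pearson r across genes 0.944 to 0.961) as with D842V replicates 2 to 4 (0.940 to 0.954), and its r with D842V replicate 5 was 0.797. D842V replicates 2, 3 and 4 correlated at 0.986 to 0.987 with each other.

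The 4 striatal genes Drd1, Drd2, Ppp1r1b and Rgs9, which mark the medium spiny neurons of the striatum, set V544ins replicates 1 and 2 apart from the other arrays compared. Their mean was 5.17, 5.14, 5.11, 4.27 and 4.54 in D842V, against 9.06, 10.25 and 5.58 in V544ins. V544ins replicate 3 lay just above the D842V arrays. None of the 4 passed singly, with log2 differences of -2.66 ± 0.90 for Drd1, -3.37 ± 1.05 for Drd2, -4.40 ± 1.16 for Ppp1r1b and -3.38 ± 0.89 for Rgs9 (adjusted p = 0.158, 0.135, 0.0839 and 0.0839). Each result below stands beside these 3 facts, the neuronal signal of D842V replicate 5, the likeness of D842V replicate 1 to V544ins and the striatal signal of V544ins replicates 1 and 2.

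Of 11809 genes tested, 34 passed (limma, Benjamini-Hochberg adjusted p under 0.05), or 0.288% of genes. In D842V 14 were higher (0.119%) and 20 were lower (0.169%), and 31 of the 34 differed at least 2-fold. The smallest adjusted p was 0.0100, and the median difference over all genes was 0.019. Leaving out 1 array changed the count widely. It was 134 without D842V replicate 1 and 2, 7, 6 and 1 without D842V replicates 2, 3, 4 and 5. It was 2, 1 and 153 without V544ins replicates 1, 2 and 3. In a fit of the 8 compared arrays alone 4 genes passed, 3 of them among the 34. Of the 34 genes, 27 kept the sign of their difference in every alternative fit and with every array left out.

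**Figure D1:**
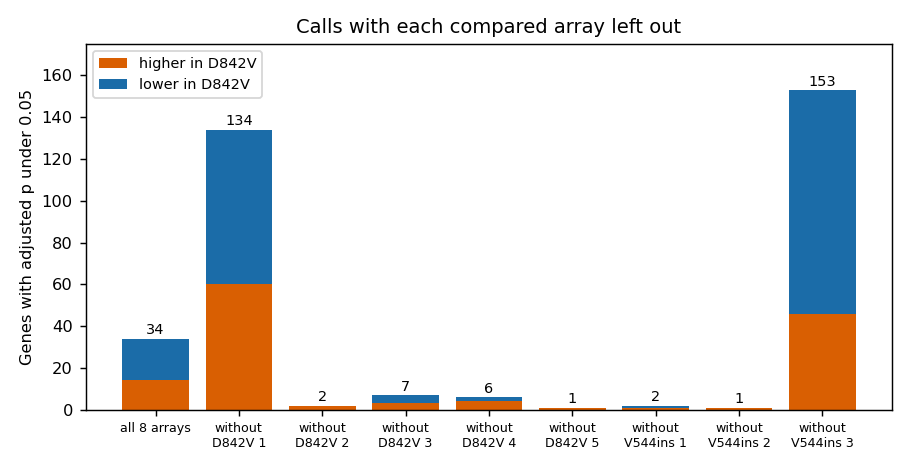
Number of genes with an adjusted p under 0.05 between D842V and V544ins in the fit of all 45 arrays, with all 8 compared arrays kept and with each left out in turn. Orange parts count genes higher in D842V and blue parts genes lower in D842V. Counts run from 1 to 153.

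Genes higher in D842V included Egr2, an immediate early zinc finger factor, Sox21, a SOX factor of neural progenitors, and Eya2, a transcriptional coactivator and phosphatase that works with sine oculis homeobox proteins. A pair of peptide genes were among them, Pyy, a gut hormone of the neuropeptide Y family, and Npb, neuropeptide B. The remainder that can be named with a role were Rell1, a relative of the TNF receptor family member RELT, Fam83d, a mitotic spindle protein gene, Eps8, an actin regulator that is a substrate of receptor kinases, Arhgap25, a GTPase activating protein gene of RAC, Nfil3, a bZIP repressor, Adamtsl1, a secreted matrix protein gene, and Scml4, a Polycomb-like gene. Fam13c and 2610024D14Rik also passed.

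Egr2 had the largest rise. It read 7.36, 7.83, 8.09, 9.34 and 8.09 in D842V replicates 1 to 5, against 4.54, 5.61 and 6.43 in V544ins. The groups did not overlap, and the D842V arrays lay entirely above the V544ins arrays in 827 of all genes (7.0%). The difference was 2.61 ± 0.56, or 6.12-fold (adjusted p = 0.0285), and was between 2.12 and 3.07 with any array left out, passing in 2 of those 8 fits. Egr2 averaged 5.52 ± 0.90 in the 6 V544ins arrays of titles 41 to 64, against which D842V was higher by 2.62 ± 0.46 (adjusted p = 0.00508). It averaged 6.29 in C450 ins, 5.65 in E10 del and 7.18 in the E10 del.v2 arrays of titles 1 to 30, and 1 of those 13 arrays, at 8.64, lay within the D842V range.

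The DNA just upstream of Egr2 and Fos is shown because immediate early genes are read through 2 kinds of site, the CArG box bound by serum response factor with ERK-regulated partners and cyclic AMP response elements. Both strands were searched for the CArG box and for TGACG, the core of the element TGACGTCA, and matches are in capitals. Sequences are from the RefSeq promoter table for GRCm38.p6, 5′ to 3′ on the gene's strand. The Egr2 stretch is chr10:67537790-67537819 on the plus strand, 30 bases with the CArG box beginning 133 bases before the most downstream of 5 annotated starts and followed by a TGACG on the opposite strand. The Fos stretch is chr12:85473640-85473889 on the plus strand, the 250 bases before its start, with 2 TGACG matches and no CArG box in this window. DNA farther upstream was not searched, so the window does not show that Fos lacks a CArG box.
Egr2: cctcagtCCATATATGGgcagcgaCGTCAc
Fos: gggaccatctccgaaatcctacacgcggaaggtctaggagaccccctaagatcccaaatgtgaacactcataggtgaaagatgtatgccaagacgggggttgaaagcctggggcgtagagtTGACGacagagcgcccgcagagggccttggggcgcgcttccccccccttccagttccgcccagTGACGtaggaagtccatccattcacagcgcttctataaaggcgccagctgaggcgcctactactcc
Of the 5 Egr2 windows of 250 bases, 4 held the CArG box and 3 a TGACG. These windows belong to annotated starts of 1 gene and can overlap, so they are not independent. The 1 window of Jun held neither the CArG box nor TGACG and is not shown. The CArG box was present in 1.47% of 32851 such windows, TGACGTCA in 1.55% and TGACG in 17.8%. The matches describe the sequence and say nothing of what binds there in these tumours.

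Sox21 read 6.54, 7.55, 7.26, 7.49 and 7.49 in D842V, against 5.24, 4.99 and 4.86 in V544ins. Every D842V array lay above every V544ins array. The difference was 2.24 ± 0.43, or 4.72-fold (adjusted p = 0.0223), and 2.15 to 2.42 with any array left out, passing in 4 of those 8 fits. Sox21 averaged 5.42 ± 0.67 in V544ins titles 41 to 64 and 5.23 to 5.50 in the means of the other mutants of titles 1 to 30. D842V exceeded V544ins titles 41 to 64 by 1.85 ± 0.35 (adjusted p = 0.0136) and the unweighted mean of those 3 mutants by 1.86 ± 0.31 (adjusted p = 0.00176).

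Eya2 read 4.34, 5.05, 5.86, 4.50 and 5.93 in D842V, against 4.05, 2.93 and 3.44 in V544ins. The groups did not overlap, with D842V replicate 1 closest to V544ins. The difference was 1.66 ± 0.29, or 3.16-fold (adjusted p = 0.0100), was 1.39 to 1.95 with any array left out, and kept its call in 6 of those 8 fits, all but those without D842V replicate 5 or V544ins replicate 2. Eya2 averaged 3.28 ± 0.52 in V544ins titles 41 to 64 and ranged from 2.90 to 3.77 over the 13 other arrays of titles 1 to 30. D842V exceeded V544ins titles 41 to 64 by 1.86 ± 0.24 (adjusted p = 4.35e-05) and the other 3 mutants by 1.93 ± 0.21 (adjusted p = 6.62e-07). A gene was tested if it exceeded 4.79 in 3 arrays or more. D842V replicates 2, 3 and 5 did so for Eya2, while V544ins titles 1 to 30 and the 13 other arrays all lay below 4.79. Among these groups Eya2 thus passed the filter through D842V, where it is high, so these p-values are no independent support. Of the 9 tested genes of the Eya, Dach, Pax and sine oculis homeobox families, which form a network of developmental regulators, 1 rose, Eya2 (0.119% of all genes rose). The list's median difference was -0.17. Dach2 read 5.38, 7.61, 7.61, 6.96 and 8.36 in D842V, against 5.67, 3.39 and 4.32 in V544ins, with 1 D842V array inside the V544ins range and a difference of 2.72 ± 0.77 that did not pass (adjusted p = 0.113).

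The peptide gene Pyy read 3.69, 5.04, 5.79, 6.17 and 5.36 in D842V, against 3.55, 3.30 and 3.24 in V544ins. D842V replicate 1 lay just above the V544ins arrays and the other 4 D842V arrays well above them. The difference was 1.84 ± 0.37, or 3.58-fold (adjusted p = 0.0232), and Pyy lay between 3.12 and 3.79 in the 13 other arrays of titles 1 to 30 and between 3.32 and 3.63 in V544ins titles 41 to 64. Npb had 4.25, 4.67, 5.16, 5.35 and 5.72 in D842V, against 3.75, 3.43 and 3.78 in V544ins, without overlap. Its difference was 1.38 ± 0.30 (adjusted p = 0.0285), and 0.90 ± 0.25 against V544ins titles 41 to 64, which did not pass (adjusted p = 0.119). Adamtsl1 had 5.36, 4.97, 5.90, 4.64 and 6.11 in D842V, against 4.04, 3.43 and 4.03 in V544ins, a difference of 1.57 ± 0.36 (adjusted p = 0.0439). D842V also exceeded V544ins titles 41 to 64 in Adamtsl1, by 1.71 ± 0.30 (adjusted p = 0.00508), and in Pyy, by 1.69 ± 0.31 (adjusted p = 0.00798). In Pyy, Npb and Adamtsl1 the 3 V544ins arrays of titles 1 to 30 all lay below 4.79, the level of the filter. Their p-values too compare D842V with low signals. In all, 17 genes passed between D842V and V544ins titles 41 to 64 (0.144%), 10 higher (0.0847%) and 7 lower (0.0593%), with 6.45% higher and 10.3% lower at an unadjusted p under 0.05.

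**Figure D2:**
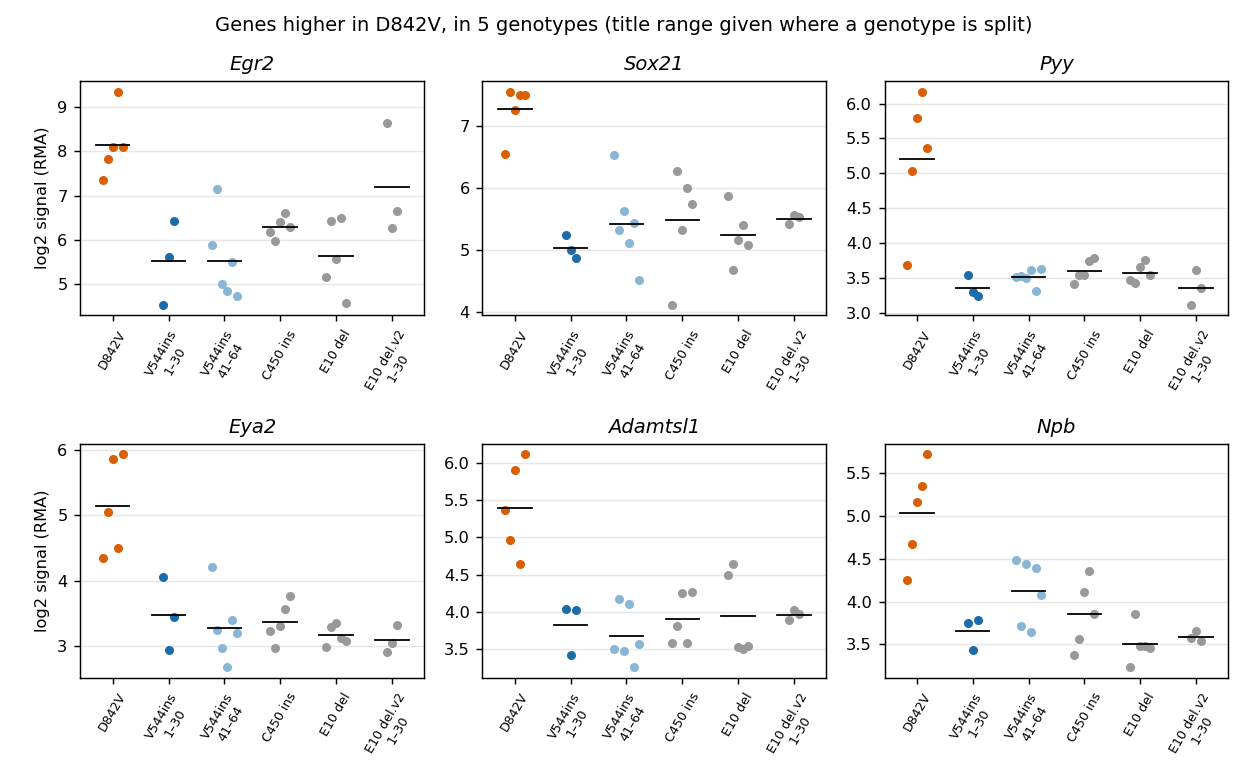
Log2 signal (RMA) of 6 genes that passed as higher in D842V, in every array of D842V, V544ins titles 1 to 30, V544ins titles 41 to 64, C450 ins, E10 del and E10 del.v2 titles 1 to 30. Points are arrays and lines group means. Eya2 lies from 4.34 to 5.93 in D842V, and both V544ins groups and the 3 other mutants lie lower on average in all 6 genes.

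A second set of genes passed as higher in D842V while V544ins titles 41 to 64 stood near D842V. Rell1 read 9.50, 10.77, 10.86, 10.69 and 10.98 in D842V, against 7.95, 8.14 and 8.75 in V544ins. The groups did not overlap, with a difference of 2.28 ± 0.46 (adjusted p = 0.0232), whereas V544ins titles 41 to 64 averaged 10.09 ± 0.25 and differed from D842V by 0.47 ± 0.38 (adjusted p = 0.531). Fam83d read 5.75, 7.16, 7.15, 6.67 and 7.46 in D842V, against 4.44, 4.92 and 5.05 in V544ins. Its difference was 2.03 ± 0.40 (adjusted p = 0.0223), and 0.22 ± 0.33 against V544ins titles 41 to 64 (adjusted p = 0.753). Eps8, Fam13c and Nfil3 had differences of 1.46 ± 0.32, 1.51 ± 0.34 and 1.64 ± 0.36 (adjusted p = 0.0335, 0.0377 and 0.0285), against 0.29 ± 0.27, 0.27 ± 0.28 and 0.14 ± 0.29 over V544ins titles 41 to 64, where none passed. Nfil3 overlapped between the groups, with 7.32 in D842V replicate 1 and 7.45 in V544ins replicate 3.

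Arhgap25 also overlapped, at 5.10, 7.83, 7.86, 7.07 and 6.60 in D842V, against 5.09, 4.57 and 5.37 in V544ins (difference 1.88 ± 0.41, adjusted p = 0.0285). Scml4 had a difference of 1.57 ± 0.36 (adjusted p = 0.0397) and 2610024D14Rik one of 2.20 ± 0.38 (adjusted p = 0.0100), though 1 of the 2 probe sets of each went the other way. In 13 of the 14 genes that were higher, D842V replicate 1 had the lowest D842V value, which it had in 39.1% of all genes. Genes with the next smallest p that did not pass were Ifngr2, an interferon-gamma receptor subunit gene (1.01 ± 0.24, adjusted p = 0.0568), Tent5a, a noncanonical poly(A) polymerase gene (2.30 ± 0.55, adjusted p = 0.0585), the immediate early gene Ier2 (1.53 ± 0.38, adjusted p = 0.0663) and Pgm2, a phosphoglucomutase gene (1.69 ± 0.42, adjusted p = 0.0712).

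Genes lower in D842V were led by Ankrd63, an ankyrin repeat gene, Kcna5, a voltage-gated potassium channel gene, and Serpina9, a serine protease inhibitor gene. Others that fell were Adra2c, the alpha-2C adrenergic receptor, and Pdyn, the precursor of the dynorphin opioid peptides, which striatal neurons are known to make, along with Sh3rf2, a SH3 and RING finger gene, Lingo3, a leucine-rich repeat gene, Chst15, a chondroitin sulfate sulfotransferase gene, Kif17, a kinesin of dendrites, Wnt2, a secreted ligand, Krt10, a keratin, Asb11, a SOCS box gene, and Diaph2, a formin. Plekha5, Lyrm4, which serves iron-sulfur cluster assembly, and Zmynd11, a reader of methylated histone H3.3, fell as well.

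Ankrd63 had the largest fall. It read 4.66, 4.52, 3.94, 4.03 and 3.31 in D842V, against 8.84, 9.62 and 5.0 in V544ins. V544ins replicates 1 and 2 were high and V544ins replicate 3 lay just above the highest D842V array. The difference was -3.73 ± 0.84, or 13.3-fold lower (adjusted p = 0.0352), and -5.14 to -2.83 with any array left out. In V544ins titles 41 to 64 Ankrd63 averaged 3.41 ± 0.60, below D842V, and among the 13 other arrays of titles 1 to 30 it ran from 3.09 to 9.87. The D842V arrays lay entirely below the V544ins arrays in 8.22% of all genes.

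Sh3rf2 showed the same arrangement, at 3.14, 3.34, 3.08, 3.15 and 3.15 in D842V, against 6.36, 7.54 and 3.47 in V544ins (-2.62 ± 0.56, adjusted p = 0.0285). Serpina9 had 2.70 to 2.97 in D842V, against 6.49, 7.90 and 2.91 in V544ins, where V544ins replicate 3 lay inside the D842V range (-2.93 ± 0.68, adjusted p = 0.0435). Adra2c had 4.61, 4.12, 4.24, 4.25 and 3.20 in D842V, against 6.82, 7.0 and 5.22 in V544ins (-2.27 ± 0.48, adjusted p = 0.0285). Pdyn had 3.35, 3.33, 3.78, 3.20 and 2.90 in D842V, against 6.18, 5.91 and 4.52 in V544ins (-2.22 ± 0.48, adjusted p = 0.0285). V544ins replicate 3, the array with the low striatal mean, was the lowest of the 3 V544ins arrays in 18 of the 20 genes that fell, and in 29.8% of all genes.

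Other genes that fell were more even over the 3 V544ins arrays. Kcna5 read 4.26, 3.73, 4.05, 3.27 and 3.10 in D842V, against 7.60, 7.52 and 6.21 in V544ins. No arrays overlapped, and the difference was -3.43 ± 0.74, or 10.7-fold lower (adjusted p = 0.0285). Wnt2 had 3.96, 3.61, 4.95, 4.0 and 4.11 in D842V, against 6.08, 6.09 and 5.91 in V544ins (-1.90 ± 0.42, adjusted p = 0.0297). Asb11 had 3.03 to 3.37 in D842V, against 4.90, 5.89 and 5.19 in V544ins (-2.12 ± 0.50, adjusted p = 0.0494). Zmynd11 had the smallest difference of the 34, with 9.85 to 10.10 in D842V, against 10.59, 10.54 and 10.58 in V544ins (-0.60 ± 0.14, adjusted p = 0.0435), and 1 of its 4 probe sets went the other way. None of the 20 genes that fell passed against V544ins titles 41 to 64 (smallest adjusted p 0.0805, Kcna5, -2.51 ± 0.61). The sign of the difference turned there in 7 of the 20, among them Wnt2 (0.59 ± 0.35), Adra2c (0.47 ± 0.40), Asb11 (0.32 ± 0.41) and Kif17 (0.04 ± 0.29).

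Krt10 read 6.44, 6.06, 6.23, 6.31 and 5.59 in D842V, against 8.07, 8.68 and 7.11 in V544ins, a difference of -1.82 ± 0.36 (adjusted p = 0.0232). D842V was lower than the other 3 mutants in Krt10 as well, by -1.13 ± 0.26 (adjusted p = 0.0351). Lingo3, Chst15, Kif17, Diaph2, Plekha5 and Lyrm4 had differences of -2.50, -2.34, -1.69, -1.10, -1.11 and -0.77 (adjusted p from 0.0232 to 0.0439), without overlap. Gm32960, 4831440E17Rik, A630026N12Rik and 2810405F15Rik also fell, by 1.61, 1.18, 0.98 and 1.92 on the log2 scale.

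**Figure D3:**
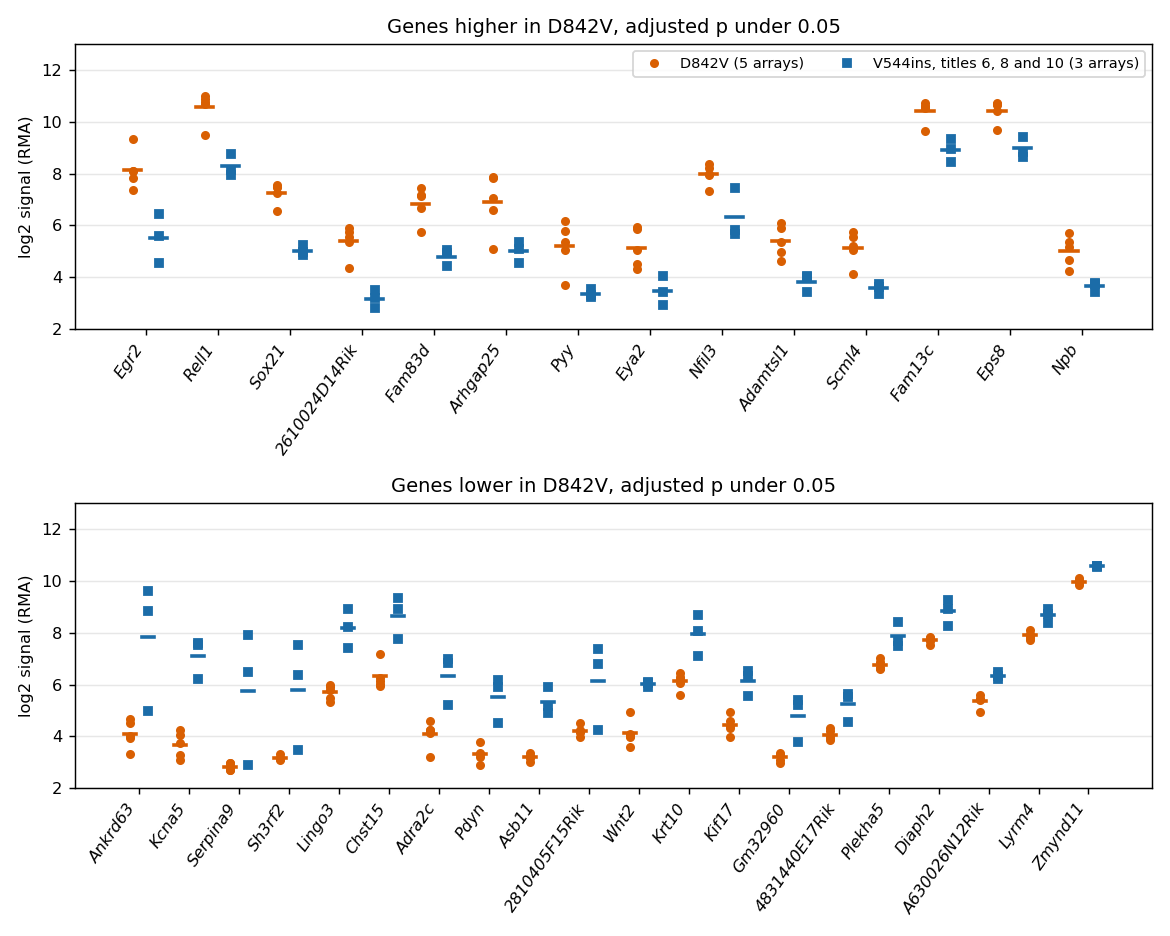
Log2 signal (RMA) of the 34 genes that passed, with the 14 higher in D842V above and the 20 lower in D842V below. Orange circles are the 5 D842V arrays, blue squares the 3 V544ins arrays and short lines their means. In Ankrd63, Serpina9 and Sh3rf2 the V544ins means rest on 2 high arrays.

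The genes that fell were set beside the striatal signal, since V544ins replicates 1 and 2 carried it. With the striatal mean as a covariate, an alternative chosen after seeing the data, none of the 34 genes passed, and 0 of 11809 genes passed in all (limma), with 447 genes at an unadjusted p under 0.05. The striatal mean itself differed between the groups, so the covariate and the genotype can be told apart only in part. The difference of Ankrd63 was -0.93 ± 0.47, that of Sh3rf2 -0.73 ± 0.30 and that of Pdyn -1.07 ± 0.45 in this fit. Those of Kcna5, Wnt2 and Zmynd11 were -2.55 ± 0.83, -1.36 ± 0.47 and -0.62 ± 0.16. On the other side, the differences of Egr2, Sox21, Eya2 and Pyy were 2.65 ± 0.67, 2.17 ± 0.51, 1.79 ± 0.35 and 1.67 ± 0.44, against 2.61, 2.24, 1.66 and 1.84 without the covariate. Rell1, Eps8, Arhgap25, Nfil3 and Adamtsl1 shrank to 1.89, 1.02, 1.56, 1.34 and 1.32, from 2.28, 1.46, 1.88, 1.64 and 1.57. Fam83d, Fam13c, Scml4, Npb and 2610024D14Rik were at 1.78, 1.36, 1.5, 1.35 and 2.24, against 2.03, 1.51, 1.57, 1.38 and 2.2. With the neuron markers as the covariate 10 genes passed, and Ankrd63 was at -3.41 ± 0.83 and Egr2 at 2.52 ± 0.57, both no longer called (adjusted p = 0.0740 and 0.0560). Eya2, Sox21, Rell1 and Fam83d kept their calls there (adjusted p = 0.0265, 0.0284, 0.0284 and 0.0284).

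**Figure D4:**
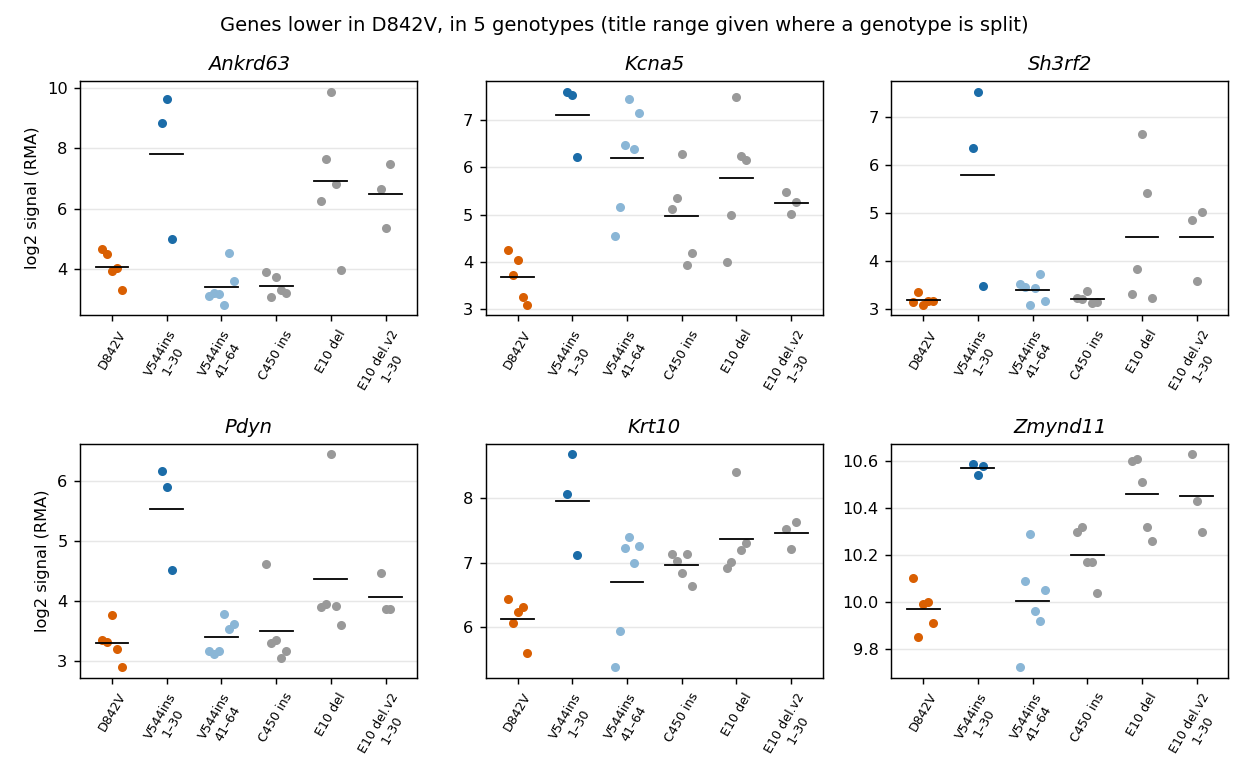
Log2 signal (RMA) of 6 genes that passed as lower in D842V, in the arrays of D842V, V544ins titles 1 to 30, V544ins titles 41 to 64, C450 ins, E10 del and E10 del.v2 titles 1 to 30. Points are arrays and lines group means. In Ankrd63, V544ins titles 41 to 64 averaged 3.41, below D842V, and E10 del arrays reached 9.87.

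Immediate early genes were next examined as a group, as the first transcriptional output of a receptor kinase. Of 19 tested members 1 rose, Egr2 (0.119% of all genes rose), and 18 did not pass. All 19 differences were positive, where 51.8% of all genes were, and their median was 0.79 against 0.019 for all genes. At an unadjusted p under 0.05 there were 4 higher, against 8.49% of all genes. Fos, the AP-1 subunit gene, read 10.59, 10.49, 11.20, 12.17 and 11.03 in D842V, against 8.72, 8.76 and 10.55 in V544ins. D842V replicate 2 lay within the V544ins range, and the difference was 1.75 ± 0.50 (adjusted p = 0.113). Its partner Jun read 9.47, 10.04, 10.01, 10.42 and 10.05 in D842V, against 8.37, 8.61 and 9.96 in V544ins (1.02 ± 0.35, adjusted p = 0.165). Ier2 read 7.03, 7.77, 7.97, 9.07 and 8.45 in D842V, against 5.70, 6.49 and 7.40 in V544ins.

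The list mean was 7.88, 7.18, 7.40, 9.58 and 7.10 in D842V, against 6.44, 6.36 and 7.95 in V544ins. D842V replicate 4 and V544ins replicate 3 each stood high in their group. D842V replicate 4 had the highest D842V value in all 19 members. Npas4, an activity-induced factor gene of neurons, was 10.37 there and 3.13 to 7.16 in the other D842V arrays, against 3.80 to 6.48 in V544ins. Without D842V replicate 4 the median of the list was 0.28 with 15 positive differences. Without V544ins replicate 3 it was 1.43 with all 19 positive, and Fos, Jun, Egr2 and Ier2 passed.

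A list of ERK feedback genes and of other genes of ERK output, such as Etv1 and Myc, was described in the same way. None of 19 tested members passed, and 16 were positive (51.8% of all genes). At an unadjusted p under 0.05, 3 were higher (8.49% of all genes), and the median was 0.31. Dusp6, the phosphatase of ERK itself, read 9.65, 10.47, 10.23, 10.63 and 10.36 in D842V, against 8.31, 9.06 and 9.89 in V544ins. D842V replicate 1 lay below V544ins replicate 3, and the difference was 1.18 ± 0.30 (adjusted p = 0.0732). It passed without V544ins replicate 3 and without D842V replicate 1. Etv1, an ETS factor gene downstream of ERK, read 9.59, 10.38, 10.31, 10.14 and 10.48 in D842V, against 9.03, 9.03 and 9.27 in V544ins, without overlap (1.07 ± 0.29, adjusted p = 0.0976). Myc read 8.15, 9.93, 9.82, 9.53 and 9.92 in D842V, against 7.81, 7.90 and 7.80 in V544ins (1.63 ± 0.64, adjusted p = 0.208). Against V544ins titles 41 to 64 the list's median was 0.12 and Myc differed by -0.11, with the opposite sign.

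The receptor gene itself overlapped between the groups. The 1 Pdgfra probe set with a single symbol read 4.91, 6.43, 6.29, 5.60 and 7.51 in D842V, against 5.74, 5.49 and 5.93 in V544ins, a difference of 0.43 ± 0.85 (adjusted p = 0.810). The labels do not say whether this mouse probe set detects the retroviral transcript, so it checks no genotype. Of 17 tested ligands and receptors of PDGF and related kinase families none passed, 0 had an unadjusted p under 0.05 and the median difference was 0.05. Markers of oligodendrocyte progenitors, the cells PDGFRA normally marks, averaged 8.39 to 9.69 in D842V and 8.68 to 9.20 in V544ins. Of these 0 of 14 passed and 0 had an unadjusted p under 0.05, with a median of 0.43. Against V544ins titles 41 to 64 their median was -0.81 with 0 of 14 positive. With neuron markers as a covariate it was -0.01 with 6 positive.

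No gene of the cell cycle list passed. Of 21 tested, 21 differences were positive with a median of 1.51, 8 were higher at an unadjusted p under 0.05 (8.49% of all genes were), and in 16 all D842V arrays lay above V544ins (7.0% of all genes). Aurka, a mitotic kinase gene, read 6.69, 7.57, 7.82, 7.57 and 8.67 in D842V, against 5.45, 6.22 and 5.86 in V544ins (1.82 ± 0.71, adjusted p = 0.209). Ccnb2, a mitotic cyclin gene, read 7.06, 8.57, 8.21, 8.37 and 7.41 in D842V, against 5.24, 6.50 and 6.26 in V544ins (1.92 ± 0.76, adjusted p = 0.214). The list mean was 6.98, 7.93, 8.20, 7.91 and 8.86 in D842V, against 6.52, 6.72 and 6.64 in V544ins. D842V replicate 1 was closest to V544ins, and D842V replicate 5, the array with the least neuronal signal, was the highest.

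The cell cycle list had the opposite sign against the V544ins arrays of the upper title range. In the 6 V544ins arrays of titles 41 to 64 its mean was 7.57 to 8.92, and against these 3 of 21 differences were positive with a median of -0.40. Neuron markers averaged 9.74 to 10.24 in the 3 V544ins arrays of titles 6, 8 and 10, against 4.66 to 7.64 in those 6. With neuron markers as a covariate the median was 0.92, with all 21 positive, and with neuron markers and the striatal mean as 2 covariates it was 0.31, with 18 positive. Inhibitors of cyclin-dependent kinases did not pass either, with 6 of 7 positive (51.8% of all genes) and a median of 0.91. At an unadjusted p under 0.05, 1 was higher (8.49% of all genes). Cdkn2b read 6.43, 8.38, 7.69, 7.75 and 7.83 in D842V, against 5.82, 5.74 and 6.23 in V544ins (1.69 ± 0.61, adjusted p = 0.176), and Cdkn2a had 7.18, 9.38, 9.76, 8.90 and 9.53 in D842V, against 7.37, 7.08 and 7.01 in V544ins (1.79 ± 0.92, adjusted p = 0.300).

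**Figure D5:**
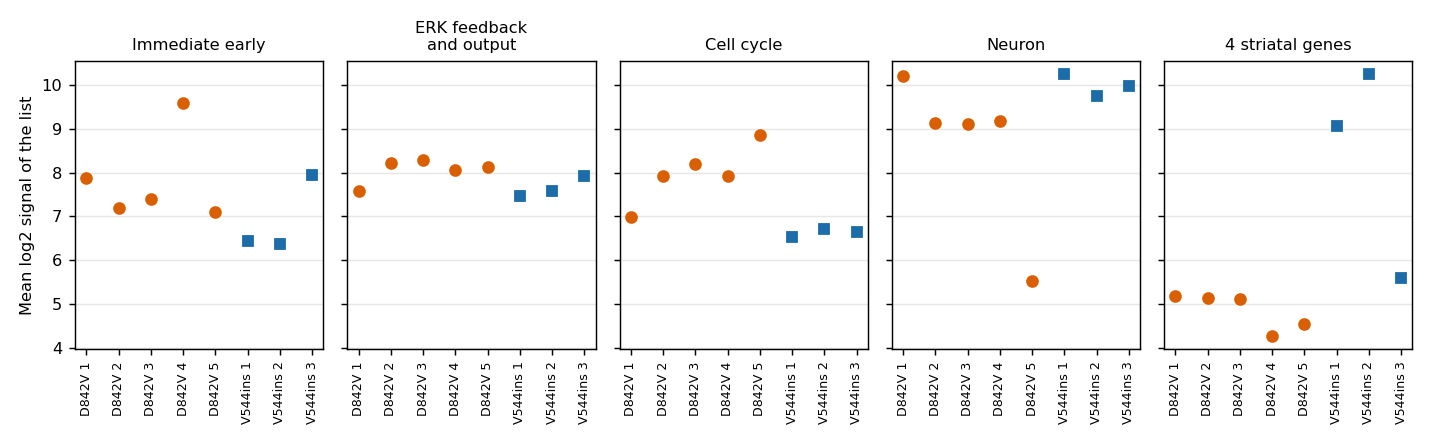
Mean log2 signal of 4 gene lists and of the 4 striatal genes in each array. Orange circles are D842V replicates 1 to 5 and blue squares V544ins replicates 1 to 3. The neuron mean drops to 5.52 in D842V replicate 5, and the striatal mean reaches 9.06 and 10.25 in V544ins replicates 1 and 2.

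Genes of brain regions differed by large amounts that mostly did not pass. Of 19 tested neuropeptide genes, most of them of the hypothalamus, 1 fell (Pdyn), 0 rose and 18 did not pass (0.169% of all genes fell and 0.119% rose). Differences were positive in 8 and negative in 11 (51.8% and 48.2% of all genes). At an unadjusted p under 0.05, 2 were higher and 5 lower (8.49% and 9.03% of all genes). The median was -0.47, and differences ran from -2.82 to 5.10. Pmch, the precursor of melanin-concentrating hormone from the lateral hypothalamus, read 10.57, 8.57, 10.44, 9.73 and 4.81 in D842V, against 4.12, 3.43 and 3.63 in V544ins. All D842V arrays lay above V544ins, D842V replicate 5 the least, and the difference of 5.10 ± 1.68 did not pass (adjusted p = 0.144). Hcrt, the orexin precursor of the same region, was 7.09 and 6.95 in D842V replicates 1 and 3 and 3.93 to 5.37 in the other D842V arrays, against 3.62 to 3.96 in V544ins. Ucn3, a urocortin, read 5.89, 5.97, 7.13, 5.70 and 8.70 in D842V, against 3.08, 3.73 and 3.86 in V544ins (3.12 ± 0.85, adjusted p = 0.0920). Unlike Pmch, Ucn3 was highest in D842V replicate 5, where neuron markers were lowest. It passed against the other 3 mutants (3.52 ± 0.61, adjusted p = 0.00281).

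Other peptide genes had negative differences that did not pass, among them Npy (-2.38), Sst (-2.55), Nts (-1.79), Crh (-1.11), Gal (-0.84) and Oxt (-0.47). Tac1, the substance P precursor, read 10.03, 7.19, 8.35, 8.08 and 4.24 in D842V, against 12, 12.20 and 7.0 in V544ins (-2.82 ± 1.29, adjusted p = 0.262), and Penk, proenkephalin, read 5.97 to 10.19 in D842V, against 11.81, 12.49 and 8.28 in V544ins (-2.46 ± 1.37, adjusted p = 0.328). Neurons of forebrain regions had 0 of 11 members passing, 1 higher and 5 lower at an unadjusted p under 0.05 (8.49% and 9.03% of all genes) and a median of -1.55, and Prox1, a factor of the dentate gyrus and of other progenitors, had a positive difference of 2.13 ± 0.54 (adjusted p = 0.0712). General neuron markers had 0 of 18 passing, 1 higher and 1 lower at an unadjusted p under 0.05, 17 negative (48.2% of all genes were negative) and a median of -1.34, and a median of -0.49 with 15 negative without D842V replicate 5. Against V544ins titles 41 to 64 the neuron median was 2.08 with all 18 positive.

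The next list held genes of the choroid plexus, the epithelium that makes cerebrospinal fluid, together with ependymal genes. Of 15 tested, 0 passed, 3 were higher at an unadjusted p under 0.05 (8.49% of all genes) and 11 were positive (51.8% of all genes). The median was 0.74, and 5 lay without overlap above V544ins (7.0% of all genes). The 4 negative members were Foxj1 (-0.32), Tmem212 (-0.76), Ccdc153 (-0.57) and Igf2 (-0.61). Ttr, transthyretin, read 13.08, 13.09, 10.52, 12.49 and 13.01 in D842V, against 6.23, 9.23 and 9.21 in V544ins. The groups did not overlap, with a difference of 4.21 ± 1.47 (adjusted p = 0.170), and D842V exceeded V544ins titles 41 to 64, at 4.97 ± 1.78, by 7.47 ± 1.22 (adjusted p = 0.00248). Ttr was 5.07 to 13.42 in the 13 other arrays of titles 1 to 30. Folr1, a folate receptor gene, read 3.58 to 5.89 in D842V, against 3.04 to 3.31 in V544ins (1.90 ± 0.75, adjusted p = 0.212). The part that host tissue takes in the differences above was not tested beyond the covariates given.

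Each side of the comparison was also set beside the other mutants of titles 1 to 30, C450 ins with 5 arrays, E10 del with 5 and E10 del.v2 with 3. These comparisons share arrays with the first, so their values stand side by side only. D842V has 5 arrays and V544ins 3, so the counts of genes that passed do not tell which side stood apart. D842V against the unweighted mean of these 3 gave 57 genes (0.483%), 39 higher (0.330%) and 18 lower (0.152%), with 5.45% higher and 5.72% lower at an unadjusted p under 0.05. The count was 77, 13, 7, 17 and 9 without D842V replicates 1 to 5 in turn. The largest rises were Ucn3, Cbln2, a synaptic organiser gene (2.86 ± 0.58, adjusted p = 0.0147), Tnfsf11, the cytokine RANKL (2.82 ± 0.64, adjusted p = 0.0323), Aldh1a3, a retinoic acid synthesis gene (2.45 ± 0.55, adjusted p = 0.0323), and Adamts4, an aggrecanase (2.26 ± 0.56, adjusted p = 0.0496). The largest falls were Rlbp1, a retinoid binding protein gene (-2.94 ± 0.72, adjusted p = 0.0463), Meox1, a mesodermal homeobox gene (-2.66 ± 0.62, adjusted p = 0.0351), Lmcd1 (-2.02), Kctd12b (-1.74) and Chst7 (-1.59).

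These 10 genes did not pass between D842V and V544ins. Tnfsf11 nevertheless read 4.60, 5.86, 6.58, 5.77 and 7.23 in D842V, against 2.65, 3.04 and 3.58 in V544ins (2.92 ± 0.87, adjusted p = 0.121), and Cbln2 had a difference of 2.36 ± 0.80 (adjusted p = 0.163). Rlbp1 read 4.33, 4.41, 4.52, 4.69 and 3.35 in D842V, against 7.06, 5.10 and 6.53 in V544ins (-1.97 ± 0.99, adjusted p = 0.289). V544ins titles 1 to 30 against the same 3 mutants gave 1 gene (0.00847%), Spink8, a protease inhibitor gene, higher by 2.32 ± 0.38 (adjusted p = 0.00456). None were lower after adjustment (limma), with 593 higher (5.02%) and 568 lower (4.81%) at an unadjusted p under 0.05. That count of 1 was 0, 1 and 28 without V544ins replicates 1, 2 and 3. Spink8 read 5.29, 5.54, 5.08, 5.44 and 3.32 in D842V, against 6.09, 5.58 and 7.10 in V544ins, a difference of -1.32 ± 0.43 (adjusted p = 0.143).

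The 3 V544ins arrays also differed from the 6 of the same genotype with titles 41 to 64, in 2786 genes (23.6%), 1474 higher (12.5%) and 1312 lower (11.1%), with 18.4% higher and 22.5% lower at an unadjusted p under 0.05. Without V544ins replicates 1, 2 and 3 the count was 199, 2 and 1935. The largest rises were neuronal: Ddn, dendrin, averaged 12.04 ± 0.34 in titles 1 to 30 and 5.91 ± 2.10 in titles 41 to 64 (SD, n = 3 and 6), and Hpca, Sst, Hpcal4 and Caln1 were higher by 5.75, 5.63, 5.60 and 5.59. The largest falls were Gbp8, an interferon-induced GTPase gene, Pdlim3, Moxd1, the cohesion gene Esco2 and Ccnb2. Esco2 averaged 2.99 ± 0.48 in titles 1 to 30, against 5.64 ± 0.51 in titles 41 to 64, a difference of -2.65 ± 0.74 (adjusted p = 0.0149). Esco2 read 3.58, 5.58, 6.02, 5.45 and 6.62 in D842V (2.46 ± 0.76 over V544ins titles 1 to 30, adjusted p = 0.135). Neuron content, title range and array cannot be told apart within this genotype, as the ranges did not overlap in neuron markers.

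Sex-linked genes were read as a check of unequal makeup. The Y-linked genes Eif2s3y, Kdm5d and Uty had differences of 1.71 ± 1.5, 1.53 ± 1.06 and 1.67 ± 0.80, and the X-inactivation transcript Xist one of -0.67 ± 0.44, and none passed (adjusted p = 0.533, 0.427, 0.278 and 0.402). Xist was at 10.03 to 11.78 in D842V and 11.79 to 11.92 in V544ins. The D842V arrays lay entirely above V544ins in 2 of the 4 sex-linked genes (7.0% of all genes) and entirely below in 1 (8.22%). The labels give no sex, and the part of sex in the differences was not tested.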

How the data were processed

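Per the submitters' processing notes, the deposited log2 values are probe set signals made with RMA, with no version stated, from Affymetrix 3' arrays. Per the labels' protocols, 100 ng of RNA was labelled for each. The deposited table holds 45 arrays and 45141 probe sets, of which 28898 have 1 gene symbol, 551 several and 15692 none in the platform annotation. A gene was read from its probe set of highest mean, and genes that exceeded 4.79, the median of the table, in 3 arrays or more were tested, 11809 of 17097. A gene high in 1 group alone can pass this filter. Without the filter 32 genes passed between D842V and V544ins, 27 of them among the 34 reported. With the filter over the 8 compared arrays 26 passed, all among the 34. limma 3.58.1 in R 4.3.3 (lmFit, eBayes) fitted all 45 arrays in 10 groups without covariates, and p-values were Benjamini-Hochberg adjusted over all genes tested, with 0.05 as the threshold. The fit was tested on simulated data with noise drawn separately for each gene and array. Differences between arrays that many genes share, such as neuronal or striatal signal, were not part of that noise. The number of arrays limits the precision.

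The members and the 39 gene lists (615 symbols) were chosen with earlier results of these data known. Named genes are, for either direction, the 15 of largest difference that passed without overlap, passing over predicted and clone genes and filled by smallest p, the 5 largest in each direction of the other comparisons, up to 4 of smallest p from each list described, and Pdgfra, Eya2, Ucn3, Pmch, Ttr, Egr2 and sex-linked genes. The other genes that passed, and Snap25, Npas4, Hcrt, Tac1, Penk, Nts, Crh, Gal and Oxt, were named after their values were seen. Trp53 was not analysed here. Alternatives changed the arrays fitted, the filter, the probe set rule, the normalization, the prior, the weights and the covariates.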

Additional observations from a re-analysis of the deposited data

Results flagged for a closer look

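Among 111 gene and list values in the 5 D842V arrays, 19 had 1 array far from the other 4, by a gap over 0.71 of the group's range, which chance alone gives in about 1 of 20. D842V replicate 5 was the array in 6 of them. Its neuron mean was 5.52 (the others 9.11 to 10.20), Gad1, which makes GABA, 4.80 (10.12 to 11.66) and Grin2b, an NMDA receptor subunit, 4.08 (7.15 to 7.99). Its MHC class II mean was 8.30 (5.53 to 6.29), its collagen and matrix mean 9.43 (6.50 to 7.05) and its granulocyte mean 8.43 (3.71 to 4.39).

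D842V replicate 1 was the array in 9. Low there were Fam13c at 9.65 (the others 10.54 to 10.71), Myc at 8.15 (9.53 to 9.93), Rell1 at 9.50 (10.69 to 10.98), Sox21 at 6.54 (7.26 to 7.55), and the means of the proneural list at 9.18 (10 to 10.15), the oligodendrocyte progenitor list at 8.39 (9.38 to 9.69) and the microglia list at 7.18 (7.92 to 8.06). High there were Chst15 at 7.19 (5.95 to 6.26) and Drd2 at 4.87 (3.09 to 3.51).

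The remaining 4 were Map2 at 7.33 (6.61 to 6.81) and Sh3rf2 at 3.34 (3.08 to 3.15) in D842V replicate 2, Ttr at 10.52 (12.49 to 13.09) in D842V replicate 3 and A630026N12Rik at 4.93 (5.42 to 5.59) in D842V replicate 4. Their causes were not tested.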

How the results depend on the processing

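Against 34 genes as reported, the count was 4 with the 8 arrays compared alone, 53 with the mean of a gene's probe sets, 4262 with array weights, 10 with the neuron list as a covariate, 0 with a minimum log2 difference of 1 (97 at an unadjusted p under 0.05), 10 with all 9 V544ins arrays, 17 with the 6 V544ins arrays of titles 41 to 64, and 0 with striatal genes or with neuron list and striatal genes as covariates (447 and 533 unadjusted), these last 2 chosen after seeing the data. With the 21 arrays of titles 1 to 30 it was 45, 18 of them shared, and Ankrd63, Rell1, Fam83d, Adra2c and Pdyn did not pass (adjusted p = 0.0895, 0.0586, 0.0515, 0.0653 and 0.0682). Leaving out 1 array gave 1 to 153. Against the 3 other mutants, D842V had 347 with 21 arrays and 134 with the neuron covariate, against 57, and 7 to 77 with 1 array left out. V544ins had 0 with 21 arrays (limma, 1448 unadjusted), against 1, and 0 (387 unadjusted) to 28 with 1 array left out. Between the V544ins ranges leaving out 1 array gave 2 to 1935. Of 1715 gene values over all settings, 32 turned sign. Against V544ins titles 41 to 64 these were 2810405F15Rik 0.08, Adra2c 0.47, Ankrd63 0.68, Asb11 0.32, Aurka -0.19, Aurkb -0.63, Bub1 -0.30, Ccnb2 -0.60, Cdkn1b -0.03, Cdkn1c -0.23, Gad1 2.36, Gm32960 0.19, Grin2b 1.84, Kif17 0.04, Myc -0.11, Npy 2.55, Pdgfra -0.57, Ppp1r1b 0.78, Slc32a1 1.97, Wnt2 0.59 and Xist 0.54. With all 9 V544ins arrays they were Gad1 0.74, Grin2b 0.54, Npy 0.91, Pdgfra -0.23, Slc32a1 0.34 and Xist 0.14. Drd2 was 0.15 with the striatal covariate, Drd2 0.00, Eif2s3y -0.27 and Pdgfra -0.21 with both covariates, and Pdgfra 0.00 with the neuron covariate. Drd2 is itself part of the striatal covariate, so its values in those fits were largely fixed in advance. The cause of the other sign changes was not tested. No paired analysis was possible because the labels give no replicate numbers and numbers in accession order pair no arrays.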

Other observations

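Genes of the matrix, of mesenchymal gliomas, of myelin and of the interferon response did not pass in any member. For the counts below, 51.8% of all genes had a positive and 48.2% a negative difference. At an unadjusted p under 0.05, 8.49% of all genes were higher. Collagen and matrix genes had 19 of 21 positive differences with a median of 0.49, and 1 had an unadjusted p under 0.05. That one was Tnc, tenascin C, an extracellular glycoprotein gene of gliomas, which read 8.17, 9.82, 10.32, 9.32 and 10.19 in D842V, against 5.87, 6.24 and 8.12 in V544ins (2.83 ± 0.89, adjusted p = 0.135). Without D842V replicate 5 the list had 9 positive differences and a median of -0.13. Mesenchymal glioma genes had 19 of 21 positive with a median of 0.74, and array means of 6.94 to 8.36 in D842V and 6.19 to 7.75 in V544ins. Against V544ins titles 41 to 64 this list had 11 of 21 positive and a median of 0. With the striatal covariate it had 11 positive and a median of 0.04.

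Myelin genes had 12 of 16 positive with a median of 0.51, and in 5 the D842V arrays lay entirely above V544ins (7.0% of all genes). Interferon response genes had 11 of 12 positive with a median of 0.53, at array means of 6.84 to 8.82 in D842V and 6.74 to 8.55 in V544ins, where V544ins replicate 3 was the highest. The interferon list had 1 of 12 positive and a median of -0.85 against V544ins titles 41 to 64. With the striatal covariate it had 2 positive and a median of -0.32. Astrocyte genes had 13 of 18 negative with a median of -0.54, and endothelial genes 14 of 18 negative with a median of -0.27. The astrocyte list had 10 of 18 positive and a median of 0.16 against V544ins titles 41 to 64. The part of host cells in these values was not tested.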
